A study of Homo sapiens with 4 samples.

Results

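The mRNAs of 10 cell-cycle cyclins were examined in cultured MDA-MB-231 cells, a long-established cell line from a human breast cancer of the triple-negative type. They were taken by gene symbol from the deposited table, which lists 43596 transcripts of 15113 genes. Of the 10 genes, 9 had rows, with 34 transcripts in all, and CCND2, the gene of cyclin D2 (hg38, chr12:4269771-4305353, plus strand), had none. The lowest mean normalized read count in the table was 7.34, so the absence of a row sets no level for CCND2 beyond not being listed. The study asked how KH-3, a small-molecule inhibitor of the RNA-binding protein HuR, changes mRNA levels in these cells. Cells received the solvent DMSO or 10 µM KH-3 for 24 h, and 2 libraries per group were sequenced. No genetic change was made in either group, and all libraries come from this 1 line. The only measurement used here is the authors' mean normalized read count of each transcript over libraries. It is not split by group or library, so the values describe how much of each cyclin mRNA was present across the experiment. No KH-3 against DMSO comparison, no spread between replicates and no test could be derived from it, and the depth of the libraries is unknown.

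Cyclins are the regulatory subunits of cyclin-dependent kinases (CDKs), and their rise and destruction order the cell cycle. D-type cyclins act with CDK4 and CDK6 in G1, E-type cyclins with CDK2 at the entry into S phase, cyclin A2 with CDK2 and CDK1 in S and G2, and B-type cyclins with CDK1 in mitosis. Cyclin F is the substrate-binding part of an SCF ubiquitin ligase and activates no CDK, while cyclin G2 is an atypical member linked to cell-cycle arrest. HuR binds AU-rich stretches, mostly in 3′UTRs, and the mRNAs of several cyclins are among its known targets.

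Among the 9 listed members, the most abundant mRNAs were those of CCNB1, CCND1 and CCNB2, and the least abundant was CCND3. The level of a gene was taken as the sum over its transcripts of the mean normalized read count per kilobase of transcript, which allows genes of different length to be set side by side. On this scale CCNB1 stood at 2669, CCND1 at 2443 and CCNB2 at 1649 reads per kilobase. CCNA2 followed at 412, CCNE2 at 234, CCNG2 at 206, CCNF at 160.5, CCNE1 at 128 and CCND3 at 53.4. The median of all listed genes was 108, with quartiles at 27.4 and 316, and 8 of the 9 cyclins lay above that median. This count depended on the setting. With protein-coding transcripts only, with the leading transcript only and without division by length it was 7, since CCNE1 fell below the median gene. With transcripts whose mean was at least 50 it was 5, since CCNG2 and CCNF lay below the median gene too. That setting leaves out genes with no such transcript, so the median gene itself differs. CCNF kept its level of 160.5 there, and CCNG2 stood at 168. The median cyclin stood at 234. The reads of all 34 transcripts made up 0.13% of the summed means in the table.

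Because the error of a level is unknown, neighbours within 1.5 times of each other were not set apart. By this limit the cyclins fell into 4 steps. Only neighbours were compared, so genes within a step can differ by more than the limit. CCNB1 was at 1.62 times CCNB2, and CCNE2 at 1.83 times CCNE1. The steps describe the main level and were not drawn for other settings. CCNB1, CCND1 and CCNB2 formed the top, with ratios of 1.09 and 1.48 between neighbours. CCNA2 stood alone, with CCNB2 at 4 times its level and CCNE2 below it by a ratio of 1.76. CCNE2, CCNG2, CCNF and CCNE1 formed the third step, with ratios of 1.13, 1.29 and 1.26 between neighbours. CCND3 came last, with CCNE1 at 2.39 times its level. The plot of levels by cycle phase shows that abundance did not follow the order of the phases, since G1 held both the second highest and the lowest cyclin.

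**Figure D1:**
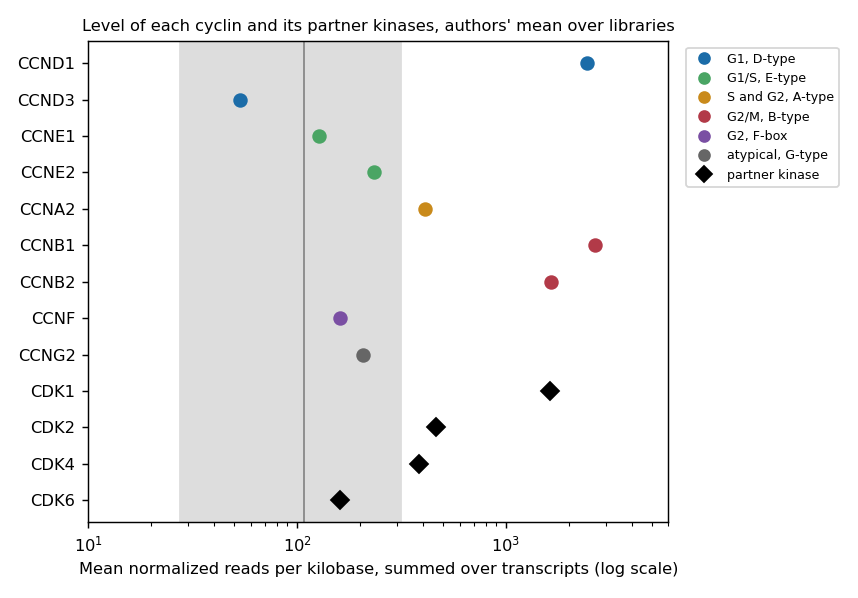
Level of each listed cyclin, ordered by cycle phase, and of the 4 partner kinases (diamonds), as the authors' mean normalized reads per kilobase summed over transcripts, on a log axis; there are no error bars because the mean is not split by library. The grey band spans the quartiles of all listed genes (27.4 to 316) and the line their median (108): CCNB1, CCND1, CCNB2 and CCNA2 lie to the right of the band, and CCND3 is the only cyclin left of the line.

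In G1, the D-type cyclins were the most unequal of the related genes among the listed members. CCND1 (chr11:69641156-69654474, plus strand), the gene of cyclin D1, which carries growth factor signals to the cell cycle, was higher than 97.7% of listed genes. CCND3 (chr6:41934934-42050357, minus strand), whose product drives the same kinases, was higher than 36.1% of them and stood at 0.493 times the median gene. With coding transcripts only it was higher than 19.6% of the genes that setting keeps. With transcripts whose mean was at least 50 it was higher than 7.2% of the genes kept there. The level of CCND1 was 45.8 times that of CCND3. Without dividing by length the ratio was 103, and with protein-coding transcripts only it was 66.2, so the direction did not depend on how transcripts were added. The partner kinases lay between both genes, with CDK4 at 383 and CDK6 at 161 reads per kilobase. CCND1 was thus at 6.38 times the level of CDK4 and 15.2 times that of CDK6. Without division by length these ratios were 10.3 and 4.24, so which of both kinases lay closer to CCND1 turned with the scale.

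Most CCND1 reads belonged to the full-length mRNA. The protein-coding transcript CCND1-001, 4307 bases long, had a mean of 7216 normalized reads, which is 95% of the reads of the gene and 68.6% of its level per kilobase. The other coding transcript, CCND1-004, had a mean of 9.75. The remaining 3 transcripts were annotated as retained introns, which are RNAs that keep an intron and are not expected to give the full protein. The highest of them, CCND1-006, is 476 bases long and had a mean of 183 reads, or 2.41% of the reads. Dividing by its short length raised this to 15.7% of the level. CCND1 shares 468 exon bases with a listed transcript of LTO1, named ORAOV1 in the table, on the opposite strand. That transcript had a mean of 12.2 reads. Whether the reads were counted by strand is not given in the sources used here, and without strand reads from such shared bases cannot be told apart.

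CCND3 had 3 listed transcripts. Its coding transcript CCND3-001 had a mean of 53.3 reads, or 72.5% of the reads and 47.9% of the level. The processed transcript CCND3-021 had a mean of 9.12 and the retained intron CCND3-004 a mean of 11.1, both close to the lowest mean listed. All 3 values of CCND3 were therefore small, and with coding transcripts only its level was 25.6 reads per kilobase.

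At the entry into S phase, CCNE2 stood above CCNE1. Cyclins E1 and E2 both activate CDK2 and are removed by the ubiquitin ligase subunit FBXW7. CCNE2 (chr8:94879770-94896678, minus strand) was higher than 68.1% of listed genes and CCNE1 (chr19:29811991-29824312, plus strand) than 53.6%. The percentile of CCNE1 was 27.3 with transcripts whose mean was at least 50, the lowest over the 5 alternatives, and that setting ranks it against fewer genes. The ratio of CCNE2 to CCNE1 was 1.83, and it lay between 1.83 and 6.01 over all the ways of adding transcripts that were tried for this pair. CDK2 was at 464 reads per kilobase, 1.98 times CCNE2 and 3.63 times CCNE1.

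Both E-type genes differed in how their reads were spread over transcripts. CCNE2 had a single listed transcript, CCNE2-201, with a mean of 637 reads over 2724 bases. Of its exon bases, 1522 are also covered on the opposite strand by 3 listed transcripts of INTS8, an Integrator subunit gene, whose summed mean was 378 reads. The part of INTS8 in the CCNE2 value was not tested. CCNE1 was spread over 6 transcripts, and its leading one by level was a retained intron, CCNE1-003, with 30.5% of the level and a mean of 50.4 reads. The coding transcript CCNE1-002 had 28.5% of the level and the highest mean of the gene, 61.2 reads. CCNE1-001, the transcript chosen as the MANE Select reference of the gene, had a mean of 17.4 reads, or 9.44% of the reads. CCNE1-002 and CCNE1-201 (mean 34.6) have no base that is not also in another listed CCNE1 transcript, and they differ from each other in which exons they join.

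CCNE1-002 and CCNE1-201 part at an exon junction. The sequence across it is shown, with the last 15 bases of the shared exon in lower case (chr19:29821803-29821817) and the first 15 bases of the exon that follows in capitals. In CCNE1-002 these lie at chr19:29821996-29822010 and in CCNE1-201 at chr19:29822240-29822254, all on the plus strand of hg38.
CCNE1-002: ttaatgattatgaagGCCCTTAAGTGGCGT
CCNE1-201: ttaatgattatgaagCTGTTGGATCTCTGT

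In S and G2, CCNA2 (chr4:121816444-121823883, minus strand), the gene of the cyclin needed for DNA replication and for entry into mitosis, was higher than 80.1% of listed genes. Its level of 412 reads per kilobase was close to that of its partner CDK2 (464), while CDK1, its partner late in the cycle, stood at 3.95 times the level of CCNA2. The table lists 2 coding transcripts, CCNA2-201 and CCNA2-001, both 2797 bases long, with means of 581 and 573 reads that differ by 1.34%. Only CCNA2-001 was found by its ID in GENCODE release 44. Among all listed genes, 74 (0.49%) had transcripts of equal length. Counting only the leading transcript put CCNA2 at 208, below CCNE2. CCNA2 shares 254 exon bases with 4 listed transcripts of EXOSC9 on the opposite strand, which had a summed mean of 394 reads against 1154 for CCNA2.

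At the entry into mitosis, both B-type cyclins were near the top of the table. Cyclins B1 and B2 bind CDK1, B1 as the main form that moves into the nucleus and B2 at the Golgi, and both are destroyed during mitosis. CCNB1 (chr5:69167135-69178245, plus strand) was higher than 98% of listed genes and CCNB2 (chr15:59105126-59125045, plus strand) than 96.1%. CDK1, at 1628 reads per kilobase, was almost level with CCNB2, with a ratio of 1.01, and CCNB1 stood at 1.64 times CDK1. Neither relation was stable. The ratio of CCNB1 to CDK1 was 1.28 with coding transcripts only, 0.75 with leading transcripts only, 0.984 without division by length and 0.415 with complete models only. That of CCNB2 to CDK1 was 0.643, 0.581, 0.701 and 1.01 under the same settings. CDC20, the activator of the ligase that destroys the B-type cyclins, was at 1605.

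The place of CCNB1 rested on short transcript models. Of its 7 listed transcripts, 5 were protein coding, 1 was a retained intron and 1 was annotated as a target of nonsense-mediated decay. The leading one, CCNB1-003, had a mean of 1425 reads, or 48.3% of the reads and 40.1% of the level. CCNB1-001, the MANE Select transcript, had a mean of 546 reads, which is 18.5% of the reads but 9.43% of the level because it is the longest at 2169 bases. CCNB1-006 had a mean of 303, CCNB1-004 of 237, CCNB1-002 of 222, CCNB1-007 of 196 and CCNB1-005 of 20.2. In GENCODE release 44, 5 of these models (CCNB1-002 to CCNB1-006) are tagged as incomplete at an end, CCNB1-003 among them. In that release CCNB1-003 has 24 bases that are in no other listed transcript of the gene, and CCNB1-001 has 545, in its last exon. CCNB1-001 is 2029 bases long there, shorter than its counted model, so both counts need not hold for the counted models. When only complete models were added, a choice made after the values were seen, CCNB1 fell from 2669 to 675 reads per kilobase, or 0.253 times the main value. It then took the third place, below CCNB2 at 0.409 times its level. That setting leaves out the reads of incomplete models and does not assign them to CCNB1-001. What remains is the retained intron CCNB1-007 at 423 and CCNB1-001 at 252 reads per kilobase. In the main setting CCNB1 was at 1.62 times CCNB2. The ratio was 1.99 with coding transcripts only, 1.29 with leading transcripts only and 1.4 without division by length. The order of CCNB1 and CCNB2 turned only with complete models, and since errors are unknown it is not fixed by these data.

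**Figure D2:**
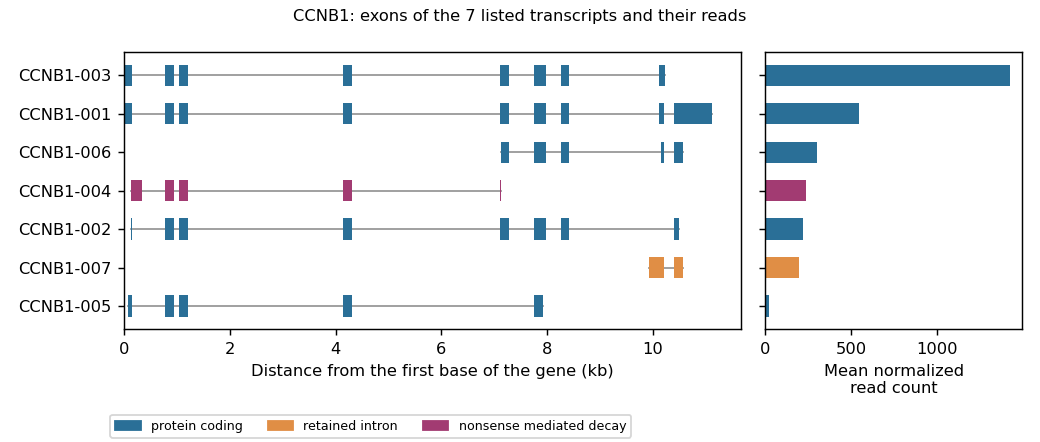
Exons (boxes) of the 7 listed CCNB1 transcripts along the gene, in kilobases from its first base, and beside them the authors' mean normalized read count of each (bars from 0, no error bars because the mean is not split by library). CCNB1-003, which ends shortly after exon 8, has the longest bar (1425), while CCNB1-001, the only model that reaches the end of the gene, has 546.

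The ends of 3 coding CCNB1 transcripts show what separates them. Each line gives the last 15 bases of an exon in lower case and what follows in that transcript in capitals, on the plus strand of chr5 in hg38. CCNB1-001 joins its exon 8 (to chr5:69177335-69177349) to exon 9 (from chr5:69177524-69177538). CCNB1-002 lacks exon 8 and joins the exon before it (to chr5:69175523-69175537) to the same last exon. CCNB1-003 reads on for 9 bases into the intron (chr5:69177350-69177358), where its model stops.
CCNB1-001: cttacaaagcacatgACTGTCAAGAACAAG
CCNB1-002: gataatggtgaatggACTGTCAAGAACAAG
CCNB1-003: cttacaaagcacatgGTGAGTCAA
At this end, the 9 bases in capitals are thus the only ones of CCNB1-003 that CCNB1-001 lacks, while CCNB1-001 goes on into exon 9.

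The leading CCNB2 transcript was its reference transcript. CCNB2-001, the MANE Select transcript of 1556 bases, had a mean of 1290.2 reads, or 61.5% of the reads and 50.3% of the level. A second coding transcript, CCNB2-201, had a mean of 355. The retained introns CCNB2-003 and CCNB2-004 had means of 393 and 61.1 reads and made up 41.1% of the level, the highest share of retained introns among the cyclins, and 21.6% of the reads. In release 44, where it is 1488 bases long, CCNB2-001 has 1 base in no other listed transcript. Its counted model of 1556 bases is longer and was not compared. Its share comes from the authors' estimation among overlapping models. CCNB2-003 has 126 bases in no other listed transcript in release 44. Its reading into the intron is shown beside the spliced form, with the last 15 exon bases in lower case (chr15:59107436-59107450) and what follows in capitals, the next exon at chr15:59107557-59107571 in CCNB2-001 and the intron at chr15:59107451-59107465 in CCNB2-003, on the plus strand of hg38.
CCNB2-001: gcacaagtagctaagAAAGCTCAGAACACC
CCNB2-003: gcacaagtagctaagGTAACAATGATGAAG

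CCNF (chr16:2429394-2458854, plus strand), the gene of cyclin F, was higher than 59.1% of listed genes. Its MANE Select transcript, CCNF-001, had a mean of 595 reads and 86.5% of the level. The other transcript, CCNF-002, is annotated as a target of nonsense-mediated decay, is nearly as long (4173 against 4283 bases) and had a mean of 90.2 reads. In release 44, CCNF-001 is 4230 bases long, shorter than its counted model. There CCNF-002 has 16 exons against 17, and 53 bases of its own, a count that need not hold for the counted models. The junction that sets it apart is given with the last 15 bases of the shared exon in lower case (chr16:2431270-2431284) and the first 15 of the next in capitals, at chr16:2432961-2432975 in CCNF-001 and chr16:2435806-2435820 in CCNF-002, on the plus strand of hg38.
CCNF-001: ctggccgtccgagctGTACACTCCCAGCTG
CCNF-002: ctggccgtccgagctGGCTGCTGAAAAGGG

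CCNG2 (chr4:77157207-77433388, plus strand), the gene of cyclin G2, was higher than 65.1% of listed genes, and all 4 of its transcripts were protein coding. Which of them led depended on the scale. Per kilobase it was CCNG2-004, with 1459 bases, a mean of 169.8 reads and 56.4% of the level. By reads it was CCNG2-001, the MANE Select transcript of 5526 bases, with a mean of 283 and 55.3% of the reads. In release 44, CCNG2-001 has 4012 bases in no other listed transcript, and CCNG2-004 has 0. CCNG1, its closest relative and a p53 target, was at 323 reads per kilobase, 1.57 times CCNG2. The ratio was 1.2 with coding transcripts only, 1.69 with leading transcripts only, 1.3 without division by length and 1.57 with complete models only.

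Across the listed cyclins, 23 of 34 transcripts (67.6%) were protein coding, against 60.4% of all listed transcripts. Retained introns made up 8 of 34 (23.5%), against 16.5%. They occurred in 5 of the 9 genes (55.6%), against 27.8% of all listed genes, and were CCND1, CCND3, CCNE1, CCNB1 and CCNB2. Their share of the level ran from 15.9% in CCNB1 to 41.1% in CCNB2, with a median of 30.5% against 20.1% over all listed genes with such a transcript. As a share of reads it ran from 4.89% in CCND1 to 27.3% in CCNE1. The cyclins were not matched to other genes on their number of transcripts. In the 8 cyclins with more than 1 transcript, the leading transcript held a median of 50.3% of the level, against 60.2% over 10289 genes. Of the 33 transcripts found in release 44, 12 had fewer than 25 bases of their own there and 9 of these had none. Only 24 of the 33 have the length of the counted model, and junctions did not enter this count. Reads were assigned by the authors' estimation among overlapping models.

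**Figure D3:**
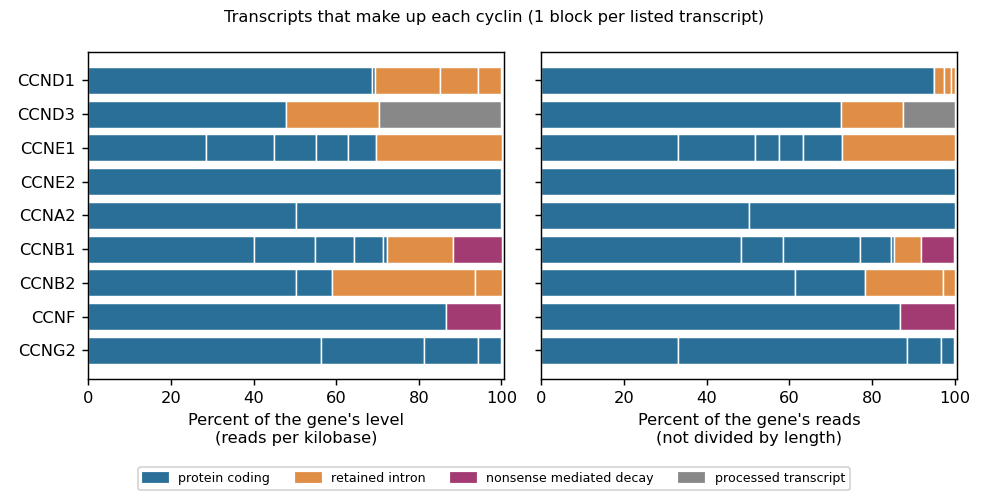
Share of each cyclin's level per kilobase (left) and of its reads (right) held by each listed transcript, in percent, with 1 block per transcript coloured by annotated type. Retained introns (orange) are wide on the left and narrow on the right in CCND1 (30.7% against 4.89%), and CCNE2, CCNA2 and CCNG2 hold protein-coding transcripts only.

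The other cyclins and the regulators of these complexes were set beside them from lists chosen with earlier results of these data known. Of 17 further cyclin genes, 16 were listed and 14 lay above the median gene, with a median of 157 reads per kilobase. CCNI was highest at 1905 and CCNH, the partner of CDK7, next at 394. CCNO (64.1) and CCNB3 (5.86), a cyclin of meiosis, were lowest. CCNA1, the A-type cyclin of the germ line, was at 117, and CCNA2 stood at 3.51 times its level. Of 15 genes that switch CDKs on or off or mark cyclins for destruction, all were listed and 10 lay above the median gene, with a median of 206. CDC20 (1605) and SKP1 (1321), a core subunit of SCF ligases, were highest. FBXO4 (42), an F-box protein, and PKMYT1 (23.4), which inhibits CDK1, were lowest. All 4 partner kinases lay above the median gene.

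Defining markers were compared with the label of the line. VIM, AXL, CAV1, EGFR and CD44, genes high in this mesenchymal-like line, were at 427 to 10135 reads per kilobase. ESR1, PGR and CDH1 were not listed, and ERBB2 (44.3) and EPCAM (43.3) lay below the median gene. Of markers of fibroblasts, leukocytes and endothelium, DCN, LUM and PTPRC were not listed and PECAM1 was at 4.08.

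AU-rich motifs in the 3′UTR were counted for each MANE Select cyclin transcript in GENCODE release 44, on the transcript's own strand. The share of a gene's reads held by that transcript ran from 9.44% in CCNE1 and 18.5% in CCNB1 to 100% in CCNE2. The 3′UTRs of other transcripts were not counted. ATTTA was found in 7 of 9 cyclins and in 76% of 9876 listed genes with such a 3′UTR. TATTTAT, each copy of which holds an ATTTA, was found in 3 cyclins, CCND1, CCNE2 and CCNG2, and in 37.9% of listed genes. CCNE2 held the most, with 10 ATTTA and 3 TATTTAT in 1408 bases, or 7.1 ATTTA per kilobase against a median of 1.84. CCNB1 held 4 ATTTA in 614 bases, or 6.51 per kilobase. CCNG2 held 9 in 4136 bases, CCND1 held 7 in 3192, CCNA2 held 3 in 1194, CCND3 held 2 in 988 and CCNF held 1 in 1834. CCNE1 (535 bases) and CCNB2 (168 bases) held 0. Within the B-type pair and within the E-type pair, 1 gene held ATTTA and the other held none. The genes without it, CCNB2 and CCNE1, have the shortest 3′UTRs of the 9 cyclins, and the median over listed genes was 1428 bases. The share of A and T ran from 45.4% in CCNF to 69.7% in CCNE2, with a median of 58.5% over listed genes. A match only describes the letters in this window, and binding was not measured here.

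The order of the cyclins was compared under 5 other ways of computing a level. Of the 36 pairs of cyclins, all 36 kept their order with protein-coding transcripts only and with transcripts whose mean was at least 50. With complete models only, 34 did, and with the leading transcript only or without division by length, 33 did. CCND1 was first under 3 of these settings, at 1675 reads per kilobase with leading transcripts only, at 2215 with complete models only and at 7597 reads without division by length. CCND3 was last and CCNE1 next to last under all 5.

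**Figure D4:**
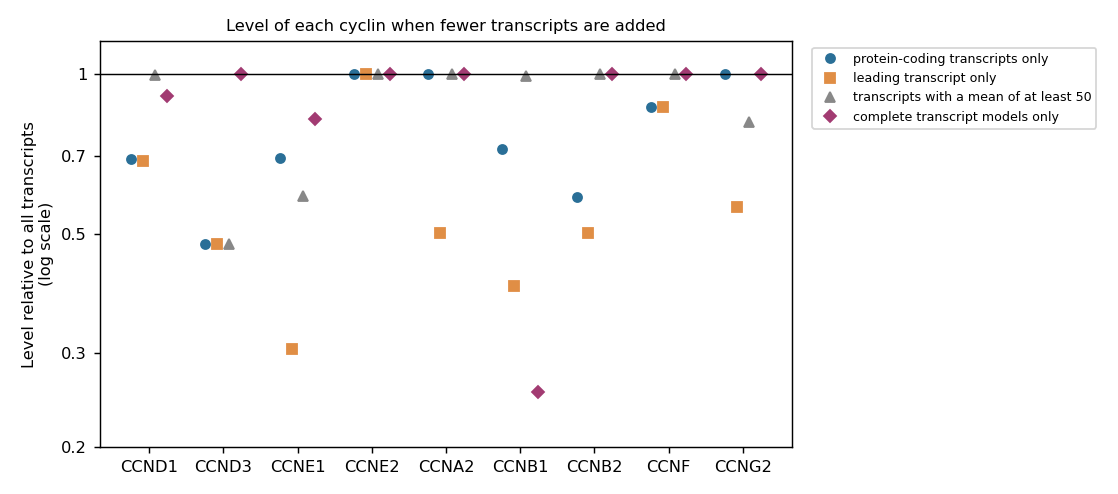
Level of each cyclin, as a ratio to its level over all transcripts (line at 1, log axis), when only some transcripts are added; there are no error bars. CCNB1 falls furthest, to 0.253 with complete models only, and CCNE1 falls to 0.305 with its leading transcript only, while CCNE2, with 1 transcript, stays at 1.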

How the data were processed

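RNA of MDA-MB-231 cells, 2 libraries with DMSO and 2 with 10 µM KH-3 for 24 h, was measured by mRNA sequencing. The authors mapped reads with STAR to GENCODE release 24 transcripts, estimated reads per transcript with eXpress and compared groups with DESeq2; versions are not given in the sources used here. The deposited values are a signal, the normalized reads of each transcript averaged by the authors over libraries, and whether a 5 µM group named in the methods enters it is not stated. The deposited fold changes, p-values and q-values hold the authors' own KH-3 against DMSO comparison and were not used. With 1 mean per transcript there is no library depth, spread or test.

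Members and lists were chosen with earlier results of these data known. Levels are summed means per kilobase, with lengths from the table. Structures, coordinates, exon sequences and 3′UTRs come from hg38 with GENCODE release 44, where 33 of 34 transcripts were found by ID, 24 with equal length. These descriptions, the complete-model setting and the junctions shown were chosen after the values were seen. All 10 cyclins were named, with the transcripts a sentence turns on, and of each other list the highest and lowest 2 genes, besides the partners of a cyclin and CCNA1 and CCNG1. Protein sequences were not analysed here. The computations were tested on simulated data. Python 3.11.15, numpy 2.4.6, pandas 2.3.3 and matplotlib 3.10.9 were used.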

Additional observations from a re-analysis of the deposited data

How the results depend on the processing

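No paired analysis was possible because the table gives no value per library. The median cyclin level was 234 reads per kilobase, and 208 to 234 when only protein-coding, leading, complete or more abundant transcripts were added. Without division by length it was 685 normalized reads, which is another unit. The median percentile among listed genes was 68.1, and 59.8 to 75.6 over the 5 alternatives, while that of CCND3 moved from 36.1 to as low as 7.2 and that of CCNE1 from 53.6 to 27.3. The values 59.8, 7.2 and 27.3 come from transcripts whose mean was at least 50, a setting that leaves fewer genes to rank against. All 9 cyclin percentiles were lower there. The levels of 6 of the 9 cyclins moved by more than 1.5 times with the leading transcript only, and those of 2 with protein-coding transcripts only. With complete models only, 1 did, CCNB1. Retained-intron shares depend on dividing by short lengths. Precision is unknown, so small ratios between genes are descriptions.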
